A study of Mus musculus with 10 samples.

Results

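Progress through G1 of the cell cycle was followed through 10 genes, namely the D cyclins Ccnd1, Ccnd2 and Ccnd3, their kinases Cdk4 and Cdk6, and the CDK inhibitors Cdkn1a, Cdkn1b, Cdkn1c, Cdkn2a and Cdkn2b. They were taken by symbol, with earlier results of these data known, and all 10 were found among the 24000 genes of the deposited tables. Of the 10, 9 had at least 1 read somewhere, and Cdkn2a had none in any population.

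D cyclins bind Cdk4 or Cdk6, and the active kinase phosphorylates the retinoblastoma protein, which frees E2F factors to transcribe the genes of DNA synthesis. Inhibitors of the Cip/Kip family, encoded by Cdkn1a (p21), Cdkn1b (p27) and Cdkn1c (p57), act on complexes of cyclin and kinase, while the INK4 inhibitors encoded by Cdkn2a (p16) and Cdkn2b (p15) bind Cdk4 and Cdk6 themselves. Cdkn1a is a classical target of p53, and in the mouse mammary gland Ccnd1 is known as the D cyclin needed for the growth of alveoli in pregnancy.

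RefSeq promoter windows of GRCm38.p6, from 250 bases before to 50 bases after an annotated start, were found for 7 of the 10 genes (10 windows). The windows of Cdk4 and Cdkn1a were picked to be shown. Each holds letters that match the known motif of a factor whose level is given further on. The factor is Myc for Cdk4 and p53 for Cdkn1a. The Cdk4 window lies at chr10:127063285-127063584 on the plus strand, and capitals mark its 4 copies of CACGTG, the E-box known as the motif of Myc, which reads the same on both strands. The Cdkn1a window is the upstream of its 2 windows, at chr17:29090729-29091028 on the plus strand, and capitals mark 1 p53 element with at most 1 letter off its consensus.
Cdk4: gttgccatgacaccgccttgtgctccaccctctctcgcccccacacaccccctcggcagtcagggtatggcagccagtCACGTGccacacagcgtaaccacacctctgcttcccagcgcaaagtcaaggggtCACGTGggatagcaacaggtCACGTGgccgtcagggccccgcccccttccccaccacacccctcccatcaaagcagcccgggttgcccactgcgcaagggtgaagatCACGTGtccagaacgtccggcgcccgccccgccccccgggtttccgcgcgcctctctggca
Cdkn1a: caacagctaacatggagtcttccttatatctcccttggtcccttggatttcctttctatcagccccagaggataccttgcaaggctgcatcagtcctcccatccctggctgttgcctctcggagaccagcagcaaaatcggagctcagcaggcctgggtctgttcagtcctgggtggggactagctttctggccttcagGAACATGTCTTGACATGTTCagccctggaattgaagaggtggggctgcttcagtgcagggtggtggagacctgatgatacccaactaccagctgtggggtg
At least 4 copies of CACGTG were found in 8 of 32851 mouse windows (0.0244%), and at least 1 copy in 7.15%. The Cdk6 window, not shown, also holds 1 copy. A p53 element was found in 29 windows (0.0883%). The GC box GGGCGG, searched on both strands, was in 35.7% of windows and in at least 1 window of Cdk4, Cdkn1a, Cdkn1b, Cdkn2a, Cdkn2b and Ccnd3, though not in the Cdkn1a window shown. The AP-1 letters TGANTCA were in 7.81% of windows and in none of the 10. These matches describe the letters of a window and not bound sites.

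The samples were mammary epithelial cells sorted by FACS from female mice. There were 10 libraries in 5 groups of 2 by their titles, which were luminal cells of Bptf WT and Bptf KO mice, myoepithelial (basal) cells of either genotype, and a population called Bsecs of Bptf KO mice, a name that the labels do not spell out. Bptf is the biggest protein of the chromatin remodeller NURF, and the series concerns its part in open chromatin and in the renewal of mammary stem cells. Every mouse, controls included, had received tamoxifen at a total of 15 mg per kg before the cells were taken. No age, strain or driver of the knockout is given in the sources used here.

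The deposited tables hold 1 column per population and no value per library, so each level below is 1 number whose interval covers counting error only. The 5 columns summed to 2036681 to 3840462 reads, with 11790 to 13955 genes detected, and the ribosomal RNA gene Rn45s took 9.76% to 32.2% of the reads, most of all in Bsecs. The tables give the 2 basal columns opposite genotypes from one table to the next, so they are called smaller and larger by their totals, and no effect of the knockout is read between them. Bptf itself was at 571 normalised counts in WT luminal cells (640 reads) and 736 in the luminal column labelled KO (1018 reads), called KO-labelled here because its libraries are titled KO while their source is given as WT mice. It was at 680 in Bsecs, 750 in the larger basal column and 558 in the smaller. Transcript counts of Bptf therefore did not separate the genotypes, and the deleted part of the gene is not known here.

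The labels were checked against marker genes. The summed level of 12 luminal markers was 50299 to 55583 normalised counts in the luminal columns, 17310 in Bsecs and 3406 to 5063 in the basal columns. Of the 12, 9 were lower in basal than in luminal columns in edgeR's test, described below, and 0 were higher. Elf5, Esr1 and Gata3 did not pass. Esr1 was highest in the smaller basal column (947, against 319 and 434 in the luminal columns), and Gata3 was at 530 there against 272 and 667. The summed level of 10 basal and myoepithelial markers was 405 to 1087 in the luminal columns, 14385 in Bsecs and 23094 to 38622 in the basal columns. Bsecs had keratin Krt5 at the basal level (3307) and the myoepithelial genes Acta2 (144) and Oxtr (1.05) far under it. Of these 10 markers, 6 were lower in Bsecs than in basal columns in edgeR's test (Acta2, Myh11, Cnn1, Mylk, Oxtr and Actg2). Itgb4 alone was higher, at 1831 against 357 and 478, and it was at 301 and 724 in the luminal columns. The 6 fibroblast markers summed to 2123 in the larger basal column against 380 in the smaller, 327 in Bsecs and 816 to 990 in the luminal columns, with Col1a2 at 0 in WT luminal cells and Col1a1 at 0 in the KO-labelled luminal column. The 5 endothelial markers summed to 244 in the larger basal column and 110 in the smaller, against 47.3 and 95.4 in the luminal columns and 23.2 in Bsecs. The 3 pericyte markers summed to 68.3 and 43.8 in the basal columns, 2.68 and 17.4 in the luminal columns and 23.2 in Bsecs, and the 3 adipocyte markers to 29.8 and 82.3, 5.35 and 2.17, and 7.37, with Adipoq and Plin1 at 0 in both basal columns. The 6 leukocyte markers summed to 3.85 to 92.5, lowest in the basal columns, with Cd3e at 0 in all 5 columns. The 3 Schwann markers summed to 287 and 389 in the basal columns, 89.2 and 69.4 in the luminal columns and 5.27 in Bsecs, mostly from Sox10. The 3 erythrocyte markers summed to 0 to 30.4, from Alas2 alone.

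In luminal cells nearly all the D cyclin level per kilobase of exon came from Ccnd1. In the basal columns and Bsecs it came mostly from Ccnd1 and Ccnd2 together. Ccnd1 was present in every column, whereas Ccnd2 was high in both basal columns and higher in Bsecs and was close to absent from luminal cells. Ccnd3 was low everywhere. Normalised counts are reads divided by median-of-ratios factors over the 5 columns, and are followed in parentheses by the 95% Poisson interval of the reads.

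Ccnd2 had 0 reads in WT luminal cells, where a limit of 3 reads corresponds to 2.68 normalised counts. It had 17 reads in the KO-labelled luminal column, or 12.3 normalised counts (7.16 to 19.7). It had 1531 reads in Bsecs, 581 in the larger basal column and 311 in the smaller, or 1613 (1533 to 1696), 559 (514 to 606) and 413 (368 to 462) normalised counts. Both basal columns and Bsecs thus lay above both luminal columns without overlap, and no neighbours in the order had overlapping intervals.

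In edgeR's quasi-likelihood test over 12275 genes, with the 2 luminal columns, the 2 basal columns and Bsecs as 3 groups, Ccnd2 rose by 6.19 ± 0.80 (SE) on the log2 scale in basal against luminal columns (adjusted p = 4.82e-07). It rose by 7.96 ± 0.89 in Bsecs against luminal columns (adjusted p = 6.39e-07, edgeR). Its difference of 1.77 ± 0.72 between Bsecs and basal columns did not pass (adjusted p = 0.209, edgeR). The spread in this test lies between columns, so it mixes genotype, library and sort, and the single Bsecs column is assumed to vary like the others. Most of its estimate is shared over all genes (32.26 prior against 2 residual degrees of freedom), so the p-values do not rest on replication of Ccnd2 alone. In a bulk sample, fewer cells of a kind and less RNA per cell cannot be told apart.

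The Ccnd2 result in basal columns stayed past the threshold under all 8 other settings tried, with log2 differences of 5.27 to 11.9 and adjusted p up to 0.0203. In Bsecs against luminal columns it also stayed past under all 8, with differences of 7.04 to 13.6 and adjusted p up to 0.0241. The highest of these differences came without the KO-labelled luminal column, where the remaining luminal column has 0 reads and the fitted value depends on the prior count. The low Ccnd2 reads in the KO-labelled luminal column came with 42 reads of Krt5 there against 1 in WT luminal cells, and with the basal marker sums of 1087 and 405 given above. Of these sums Itgb4 made up 724 and 301, and it did not differ past the threshold between basal and luminal columns (edgeR adjusted p = 0.747). Krt14, which did, was at 215 and 48.2 normalised counts. The part of basal cells in the Ccnd2 reads of that column was not tested.

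Markers of other cell types also rose in the basal columns. In edgeR's test 5 of 6 fibroblast markers (Lum, Col1a1, Col1a2, Col3a1 and Pdgfra) were higher in basal than in luminal columns, with a median log2 difference of 4.27, while Dcn, the most abundant of them by its mean, did not pass (130 to 1297 normalised counts). Lum, at 3.98 in the smaller basal column against 7.14 and 3.61 in the luminal columns, was high in the larger basal column alone. Of the other lists, 1 of 5 endothelial markers (Cdh5), 1 of 3 pericyte markers (Pdgfrb) and the 1 adipocyte marker tested (Fabp4) were higher too. So was 1 of the 2 Schwann markers tested (Sox10), which was at 2.11 normalised counts in Bsecs against 260 and 389 in the basal columns. No leukocyte or erythrocyte marker tested was higher. In Bsecs against luminal columns Col1a2 rose, from 0 and 0.723 normalised counts in the luminal columns to 43.2 in Bsecs. The part of these cell types in the level of Ccnd2 was not tested.

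**Figure D1:**
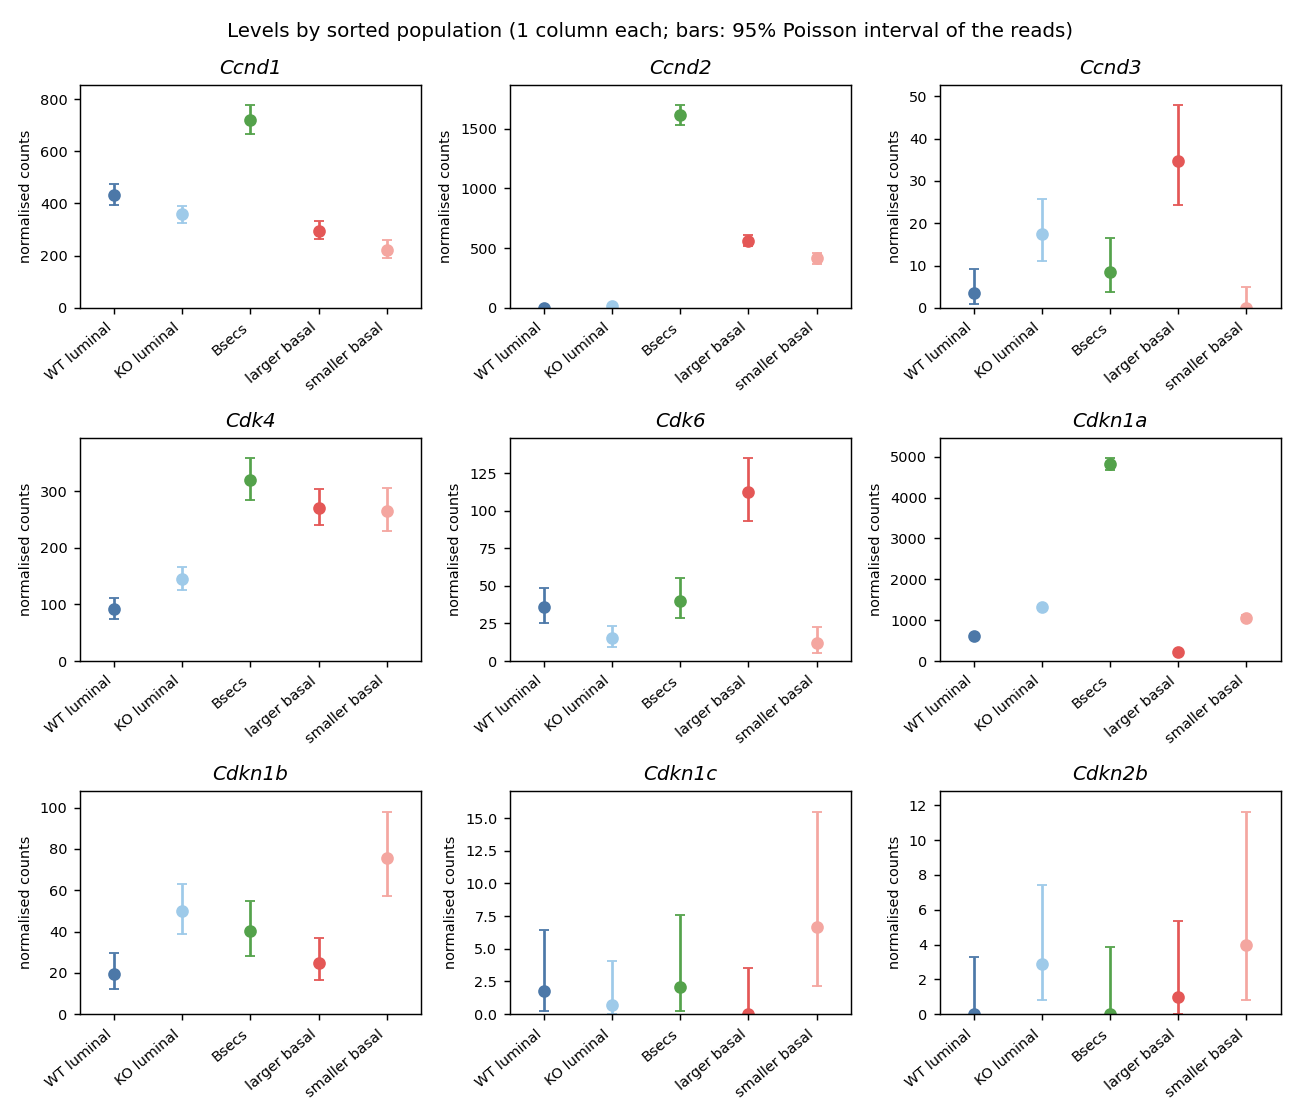
Normalised counts of the 9 genes with any read, 1 panel per gene and 1 point per deposited column, with bars for the 95% Poisson interval of the reads. The scale of each panel is its own, and Ccnd2 sits near 0 in both luminal columns and between 413 and 1613 in the other 3.

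Ccnd1 had 485 reads in WT luminal cells, 495 in the KO-labelled luminal column, 684 in Bsecs, 308 in the larger basal column and 167 in the smaller. In normalised counts the order was Bsecs at 721 (668 to 777), WT luminal at 433 (395 to 473), the KO-labelled luminal column at 358 (327 to 391), larger basal at 296 (264 to 331) and smaller basal at 222 (189 to 258). Only the intervals of the KO-labelled luminal column and the larger basal column overlapped among neighbours. Both luminal columns lay above both basal columns, as did 29.6% of the 10399 genes with a mean of at least 10.

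None of the 3 differences of Ccnd1 passed in edgeR's test. Basal against luminal columns differed by -0.63 ± 0.53 (adjusted p = 0.489) and Bsecs against luminal columns by 0.88 ± 0.62 (adjusted p = 0.491). Bsecs against basal columns differed by 1.51 ± 0.62 (adjusted p = 0.215, edgeR), with an unadjusted p of 0.0199. Across columns the range of Ccnd1 was 3.25-fold, against 21.8-fold for Cdkn1a. LTO1, a gene on the opposite strand, shares 1100 of the 4709 exon bases of Ccnd1, and its reads were not analysed here.

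Ccnd3 had 4 reads in WT luminal cells, 24 in the KO-labelled luminal column, 8 in Bsecs, 36 in the larger basal column and 0 in the smaller. Its levels of 0 to 34.6 normalised counts left the groups overlapping, and its fitted differences had standard errors of 1.58 to 2.05 on the log2 scale. Bysl, a ribosome assembly gene on the opposite strand, shares 361 of the 8775 exon bases of Ccnd3, and whether the counting used strand is not given in the sources used here.

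Per kilobase of exon, Ccnd1 made up 99.6% of the D cyclin level in WT luminal cells and 95.9% in the KO-labelled luminal column. In Bsecs Ccnd2 made up 52.7%, in the larger basal column 47.0% and in the smaller 48.2%, with nearly all the rest from Ccnd1. The 2 cyclins were therefore at like levels per kilobase in these 3 columns. With the length of the longest coding transcript in place of all exons, chosen after the data were seen, the share of Ccnd2 was 56.4% in Bsecs, 48.0% in the larger basal column and 52.4% in the smaller, so which of the 2 leads in the basal columns depends on the length used. By that length Ccnd1 made up 98.6% in WT luminal cells and 90.4% in the KO-labelled luminal column. Ccnd3 then made up 7.76% in the KO-labelled luminal column and 8.91% in the larger basal column.

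The summed level of the 3 D cyclins per kilobase was 325 in Bsecs. It was 126 in the larger basal column and 91.0 in the smaller, 92.3 in WT luminal cells and 79.3 in the KO-labelled luminal column. The luminal columns and the smaller basal column thus had like sums of different make-up.

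**Figure D2:**
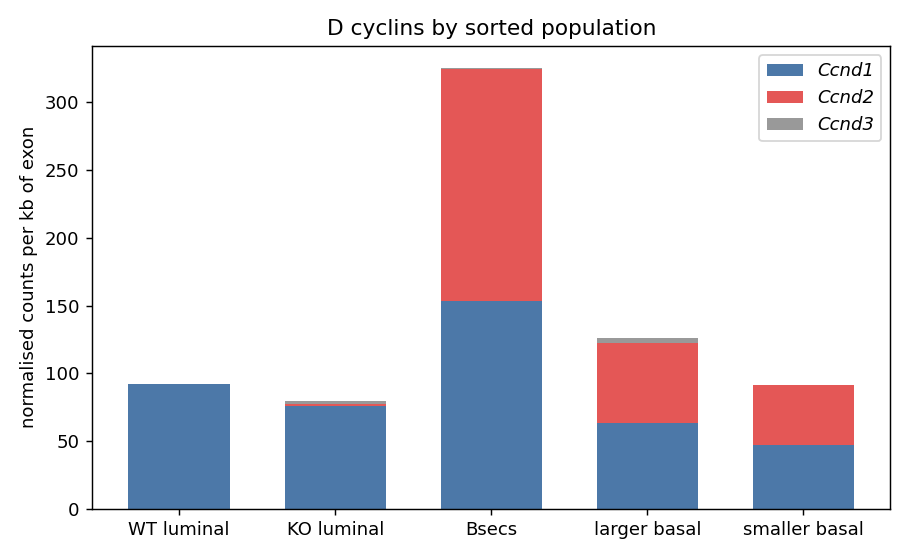
Stacked bars of normalised counts per kilobase of exon for Ccnd1, Ccnd2 and Ccnd3 in each of the 5 columns. The luminal bars are nearly all Ccnd1, and the Bsecs bar of 325 and both basal bars are split between Ccnd1 and Ccnd2.

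The ratio of one gene's reads to another's within a column does not depend on how columns are scaled. There were 0.0343 Ccnd2 reads per Ccnd1 read in the KO-labelled luminal column (95% interval 0.0198 to 0.0556), and in WT luminal cells 0, with a limit of 0.00619. The ratio was 2.24 in Bsecs (2.04 to 2.45), 1.89 in the larger basal column (1.64 to 2.17) and 1.86 in the smaller (1.54 to 2.26). The 2 basal columns thus shared a ratio although their levels differed.

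Set against each other, the smaller basal column had 0.987 times the ratio of the larger (exact 95% interval 0.777 to 1.26). The larger basal column had 0.843 times the ratio of Bsecs (0.712 to 0.998) and the smaller 0.832 times (0.672 to 1.03). Bsecs had 65.1 times the ratio of the KO-labelled luminal column (39.8 to 114). These intervals hold counting error only.

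**Figure D3:**
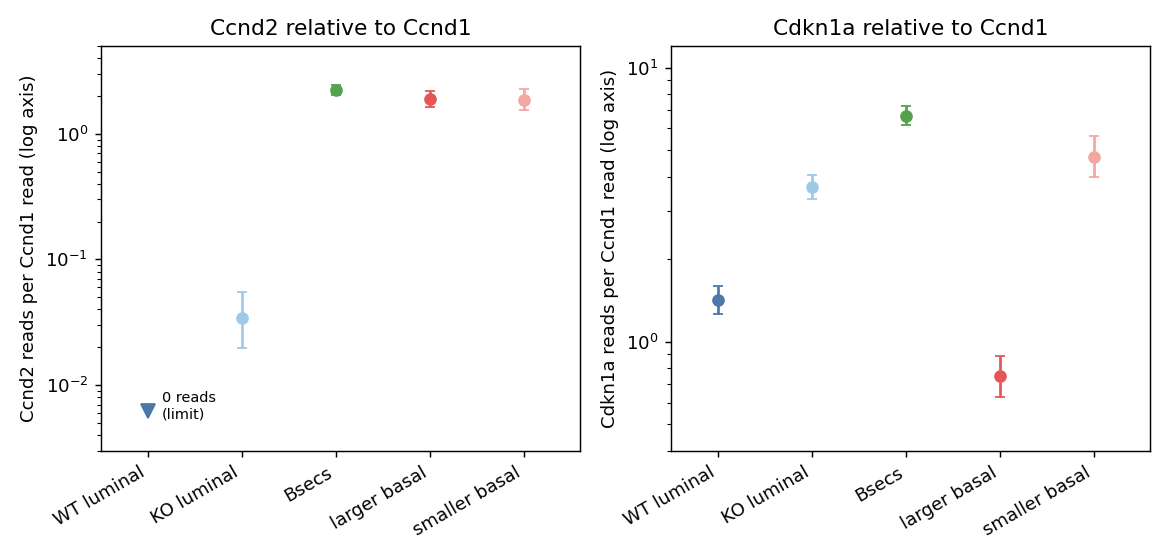
Reads of Ccnd2 (left) and of Cdkn1a (right) per read of Ccnd1 in each column, on log axes, with exact 95% intervals of the counts. The triangle is the limit of 0.00619 that 3 reads would give for Ccnd2 in WT luminal cells, and the 3 columns other than luminal lie together near 2 on the left but apart on the right.

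Of the kinases, Cdk4 was the main one in each column. Per kilobase of exon it made up 91.2% to 99.0% of the summed level of Cdk4 and Cdk6. Cdk4 had 103 reads in WT luminal cells, 200 in the KO-labelled luminal column, 304 in Bsecs, 282 in the larger basal column and 200 in the smaller. In normalised counts these were 91.9 (75.0 to 112), 145 (125 to 166), 320 (285 to 358), 271 (240 to 305) and 266 (230 to 305).

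Both basal columns lay above both luminal columns for Cdk4, as did 26.9% of the 10399 genes with a mean of at least 10. Intervals of Bsecs and the basal columns overlapped, and scaled to totals without Rn45s the larger basal column rather than Bsecs was the highest. No difference of Cdk4 passed in edgeR's test, with 1.15 ± 0.57 in basal against luminal columns (adjusted p = 0.201) and 1.45 ± 0.67 in Bsecs against luminal columns (adjusted p = 0.248). Tspan31, a gene on the opposite strand, shares 641 of the 3249 exon bases of Cdk4, and its reads of 272, 212, 256, 185 and 104 in the same order of columns were not ordered like those of Cdk4.

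Per Ccnd1 read there were 0.212 Cdk4 reads in WT luminal cells (0.170 to 0.263) and 0.404 in the KO-labelled luminal column (0.341 to 0.477). Bsecs had 0.444 (0.387 to 0.509), the larger basal column 0.916 (0.776 to 1.08) and the smaller 1.20 (0.970 to 1.48). Bsecs was 1.1 times the KO-labelled luminal column in this ratio (0.885 to 1.37), while the larger basal column was 2.06 times Bsecs (1.66 to 2.56).

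Cdk6 had 40 reads in WT luminal cells, 21 in the KO-labelled luminal column, 38 in Bsecs, 117 in the larger basal column and 9 in the smaller. Its level was 113 normalised counts (93.0 to 135) in the larger basal column and 11.95 (5.47 to 22.7) in the smaller, so the 2 basal columns lay on either side of both luminal columns. The larger basal column was also the one with the highest fibroblast marker sum (2123 against 380), and the part of other cell types in its Cdk6 was not tested. None of the 3 differences of Cdk6 passed in edgeR's test, with adjusted p of 0.436, 0.900 and 0.833 in basal against luminal, Bsecs against basal and Bsecs against luminal columns.

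Among the inhibitors, Cdkn1a was the most abundant and varied the most, while the others were low. Cdkn1a had 4572 reads in Bsecs, 1820 in the KO-labelled luminal column, 791 in the smaller basal column, 689 in WT luminal cells and 230 in the larger basal column. In normalised counts these were 4817 (4678 to 4958), 1316 (1256 to 1378), 1051 (979 to 1126), 615 (570 to 663) and 221 (194 to 252), with no overlap of neighbouring intervals. Bsecs lay above the other 4 columns, and the basal and luminal columns were interleaved.

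Cdkn1a rose by 2.99 ± 0.67 on the log2 scale in Bsecs against basal columns (edgeR adjusted p = 0.00396). It remained past the threshold under all 8 other settings, with adjusted p between 7.27e-06 and 0.0385. The size depended on the basal columns, at 4.44 without the smaller and 2.28 without the larger. Against luminal columns it rose by 2.33 ± 0.67 (edgeR adjusted p = 0.0337), which was lost without the WT luminal column, when the difference was 1.89 with adjusted p of 0.318.

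Basal and luminal columns did not differ past the threshold in Cdkn1a (-0.66 ± 0.57, edgeR adjusted p = 0.506). Single columns decided that value, which was -2.11 with adjusted p of 0.0229 without the smaller basal column, 0.020 with adjusted p of 0.997 without the KO-labelled luminal column, and 0.057 with adjusted p of 0.968 without the larger basal column. Per Ccnd1 read there were 6.68 Cdkn1a reads in Bsecs (6.17 to 7.25), 4.74 in the smaller basal column (4.004 to 5.63) and 3.68 in the KO-labelled luminal column (3.33 to 4.07). There were 1.42 in WT luminal cells (1.26 to 1.60) and 0.747 in the larger basal column (0.627 to 0.889), so the inhibitor outnumbered the cyclin in reads everywhere but there. That exception depends on length. In the larger basal column Cdkn1a and Ccnd1 were at 62.2 and 62.9 normalised counts per kilobase of exon, and at 106 and 79.2 per kilobase of the longest coding transcript.

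Cdkn1b had 22, 69, 38, 26 and 57 reads in WT luminal cells, the KO-labelled luminal column, Bsecs, the larger and the smaller basal column. Its normalised counts ran from 19.6 to 75.7, the groups overlapped, and the largest fitted difference was 0.47 ± 0.93 in basal against luminal columns (edgeR adjusted p = 0.798). Cdkn1c had 0 to 5 reads per column, and Cdkn2b had 4 in the KO-labelled luminal column, 3 and 1 in the smaller and larger basal columns and 0 elsewhere. Cdkn2a had 0 reads in all 5 columns, where 3 reads would correspond to 2.17 to 3.98 normalised counts. At this depth Cdkn1c, Cdkn2a and Cdkn2b did not pass the filter on low counts, so no difference between groups was tested in them. Between single columns, Cdkn1c had 5 reads in the smaller basal column against 0 in the larger. That is at least 2.33-fold higher at a limit of 3 reads, with an exact binomial interval that starts at 1.28.

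Counted over the genes, 7 of 10 passed that filter. In basal against luminal columns 1 gene rose (Ccnd2) where 5.25% of all genes tested were higher, and none fell where 7.67% were lower, and the counts were 1 by DESeq2 and 1 at an unadjusted p under 0.05. In Bsecs against basal columns 1 rose (Cdkn1a) against 2.7% of all genes, and none fell against 1.68%, with 1 by DESeq2 and 3 at an unadjusted p under 0.05, namely Ccnd1, Ccnd2 and Cdkn1a. In Bsecs against luminal columns 2 rose (Ccnd2 and Cdkn1a) against 2.43%, and none fell against 2.35%, with 2 by DESeq2 and 3 at an unadjusted p under 0.05, which were these and Cdk4. Here and in the lists below, the shares of all genes called by DESeq2 or at an unadjusted p under 0.05 were not computed. Those counts are therefore not set against a share. Bsecs was the highest of the 5 columns for Ccnd1, Ccnd2, Cdk4 and Cdkn1a, which is 4 of the 7 genes with a mean of at least 10, where 20.2% of all such genes had Bsecs highest, and Cdk4 lost this place with totals without Rn45s.

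**Figure D4:**
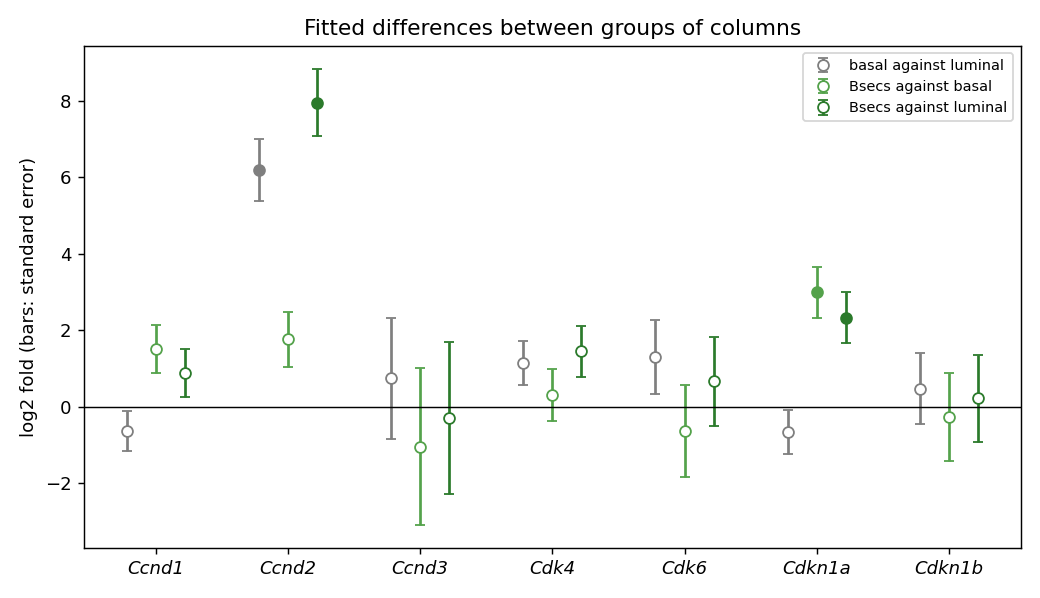
Fitted log2 differences between groups of columns for the 7 genes that passed the filter, with bars for the standard error, from edgeR's quasi-likelihood fit. Filled points have an adjusted p under 0.05, which are Ccnd2 in both comparisons with luminal columns and Cdkn1a in both comparisons with Bsecs.

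The column labelled KO luminal was also set against WT luminal cells, the comparison that the labels give for Bptf in luminal cells. It had 1 column per side, so there is no replicate check, and intervals of folds are exact binomial intervals of the reads on the scale of the deposited table. Cdkn1a was 2.10-fold higher in the KO-labelled luminal column (1.93 to 2.30), Cdkn1b 2.50-fold higher (1.53 to 4.24) and Ccnd3 4.78-fold higher (1.64 to 18.96), and Cdk6 was 2.39-fold lower (1.38 to 4.27). At least a 2-fold difference was shown by 17.2% of genes with a mean of at least 10 in the upward and 16.3% in the downward direction, against 3 and 1 of the 6 genes here that reach this mean.

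By the p-values in the authors' deposited table, adjusted over all genes, 0 of the 10 passed between the luminal columns, where 0.0543% of all genes were higher and 0.0339% lower, and 0 had an unadjusted p under 0.05. Ccnd1 was 1.23-fold lower (1.08 to 1.40) and Cdk4 1.55-fold higher (1.21 to 1.98). For Ccnd2, 17 reads against 0 give at least 4.51-fold higher against a limit of 3 reads, and the interval starts at 3.29. Scaled to totals without Rn45s, Cdkn1a fell short of 2-fold, and 3 rather than 4 genes were at least 2-fold apart.

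The 2 basal columns were set against each other by their totals. The smaller had 4.81-fold more Cdkn1a than the larger (4.15 to 5.60) and 3.07-fold more Cdkn1b (1.90 to 5.09). The smaller had 9.29-fold less Cdk6 (4.73 to 20.8) and, at 0 reads against 36, at least 8.57-fold less Ccnd3, with an interval that starts at 6.62. At least a 2-fold difference was shown by 20.1% of genes with a mean of at least 10 in either direction, and none of the 10 passed by the authors' deposited p-values adjusted over all genes, where 0.0137% were called in either direction, although Cdkn1a, Cdk6 and Ccnd3 had unadjusted p of 0.00753, 0.0284 and 0.0445 in the authors' deposited table. Cdk4 stood at 0.993 times the larger column (0.824 to 1.19), and Ccnd1 and Ccnd2 were 1.32-fold (1.09 to 1.60) and 1.33-fold (1.16 to 1.54) lower in the smaller.

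Bsecs was set against each other column in 4 deposited tables. Ccnd2 was 135-fold higher than in the KO-labelled luminal column (84.1 to 233), 3.88-fold higher than in the smaller basal column (3.43 to 4.39) and 2.90-fold higher than in the larger (2.63 to 3.19). Against WT luminal cells it was at least 628-fold higher at a limit of 3 reads, with an interval that starts at 510, and was the only one of the 10 past the threshold by the p-values in the authors' deposited table (adjusted p = 0.00838, where 0.119% of all genes were higher and 0.0909% lower). In the authors' deposited table against the KO-labelled luminal column its adjusted p was 0.0660, where 0.00676% of genes were higher and 0.0338% lower.

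Against the basal columns 0 of the 10 passed by the p-values in the authors' deposited tables, with 1 gene (Cdkn1a) at an unadjusted p under 0.05 against the larger and 0 against the smaller. Of all genes, 0.227% were higher and 0.254% lower than in the larger, and 0.38% in either direction for the smaller.

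Cdkn1a was 21.9-fold higher in Bsecs than in the basal column of larger total (19.1 to 25.1) and 4.55-fold higher than in the smaller (4.22 to 4.92). It was 8.17-fold higher than in WT luminal cells (7.54 to 8.86) and 3.77-fold higher than in the KO-labelled luminal column (3.57 to 3.98). Ccnd1 was 1.74-fold to 3.23-fold higher in Bsecs than in the 4 others.

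Among genes with a mean of at least 10 in a table, those at least 2-fold apart were counted. Against the larger basal column 3 of 7 were higher (Ccnd1, Ccnd2 and Cdkn1a, where 22.2% of all such genes were) and 2 lower (Ccnd3 and Cdk6, 24.2%). Against the smaller 4 of 6 were higher (these 3 and Cdk6, 22.7%) and 0 lower (24.4%). Against the KO-labelled luminal column 5 of 7 were higher (Ccnd1, Ccnd2, Cdk4, Cdk6 and Cdkn1a, 22.8%) and 1 lower (Ccnd3, 28.4%), and against WT luminal cells 4 of 6 were higher (Ccnd2, Cdk4, Cdkn1a and Cdkn1b, 24.8%) and 0 lower (28.1%). Ccnd2 and Cdkn1a were thus the genes at least 2-fold higher in all 4 comparisons, which share the Bsecs column. Scaled to totals without Rn45s, 4 genes rather than 5 were at least 2-fold apart from the larger basal column (Ccnd1 at a log2 difference of 0.93), 4 rather than 6 from the KO-labelled luminal column (Ccnd1 at 0.85 and Cdk4 at 0.98) and 3 rather than 4 from WT luminal cells (Cdkn1b at 0.76). From the smaller basal column 5 rather than 4 were, with Cdkn1b at -1.13, and Cdkn1a was then at 1.99. Bsecs is a knockout population by its title, so its genotype and its cell type cannot be told apart against the WT luminal column. The basal columns carry conflicting genotypes, and the KO-labelled luminal column has WT mice as its source. Genotype and cell type therefore cannot be told apart with certainty against those columns either.

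The wider pathway was read from lists taken by function. Of the list of cyclin E, CDK2 and their activators, 5 of 9 genes had reads enough to be tested, namely Cdk2, its activating phosphatase Cdc25a, and Cdk7, Ccnh and Mnat1 of the CDK-activating kinase, so cyclin E itself was not. Of these 5, 0 passed edgeR's test in any of the 3 comparisons, with 2, 0 and 0 at an unadjusted p under 0.05 and 0 by DESeq2 in basal against luminal, Bsecs against basal and Bsecs against luminal columns. The medians of these 5 were 1.35, -0.12 and 1.53 on the log2 scale, against -0.08, -0.08 and -0.21 over all genes tested. Its most abundant gene, the CDK-activating kinase Cdk7, had 81.2 and 66.5 normalised counts in the luminal columns, 173 in Bsecs, with 214 and 171 in the basal pair. Ccne1 had 0 to 2 reads, Ccne2 0 to 13 and Cdk2 0 to 25 per column, and Cdkn2c, Cdkn2d and Cdkn3, the other inhibitors, had 0 to 5 reads and were not tested.

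Of the retinoblastoma family, E2F and DP factors, 12 of 17 were tested, and 1 rose in basal against luminal columns (5.25% of all genes) and in Bsecs against luminal columns (2.43%). Tfdp1, the DP partner of E2F factors, had 10 and 28 reads in WT luminal cells and the KO-labelled luminal column, 229 in Bsecs, and 97 in each basal column. It rose by 2.87 ± 0.75 in basal against luminal columns (edgeR adjusted p = 0.00768) and by 4.04 ± 0.85 in Bsecs against luminal columns (edgeR adjusted p = 0.00273), and no other gene of the list passed. In Bsecs against basal columns 0 passed in edgeR, with 0 at an unadjusted p under 0.05 and 0 by DESeq2. The medians of the list were 0.26, 0.26 and -0.09 in the order of comparisons above. Its most abundant gene, E2f4, had 79.4 to 363 normalised counts.

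Of the E2F targets of S phase, 16 were tested and 0 passed edgeR's test in each comparison. At an unadjusted p under 0.05 there were 2 in basal against luminal, 0 in Bsecs against basal and 2 in Bsecs against luminal columns, and DESeq2 called 0, 0 and 1, the last one lower. The medians were -0.21, -0.84 and -0.94. Pcna, the replication clamp and the most abundant of them, had 66.9 and 60.0 normalised counts in the luminal columns, 214 in Bsecs, with 144 and 87.7 in the basal pair.

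Of p53 and its targets, 23 genes were tested, apart from Cdkn1a itself. In basal against luminal columns 1 rose and 5 fell, in Bsecs against basal columns 3 rose and 1 fell, and in Bsecs against luminal columns 1 rose and 1 fell. Over all genes tested the shares were 5.25% higher and 7.67% lower, 2.7% and 1.68%, and 2.43% and 2.35%. DESeq2 called 2 higher and 5 lower, 2 and 1, and 1 and 1, and 16, 8 and 11 had an unadjusted p under 0.05. The shares of all genes by these 2 measures were not computed, so these counts are not read as a result about the list. The medians were -0.26, -0.26 and -0.49, against -0.08, -0.08 and -0.21 over all genes tested. Trp53, which encodes p53, had 387 and 327 normalised counts in the luminal columns, 880 in Bsecs, with 693 and 1331 in the basal pair, and did not pass in any comparison. Mdm2, whose product degrades p53, was at 205 to 312 in all 5 columns.

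Trp53inp1, a p53-induced gene of cell death and autophagy, was at 1764 and 2124 normalised counts in the luminal columns, 651 in Bsecs, with 66.3 and 66.4 in the basal pair. It fell by 4.90 ± 0.59 on the log2 scale in basal against luminal columns (edgeR adjusted p = 1.40e-07) and rose by 3.33 ± 0.61 in Bsecs against basal columns (edgeR adjusted p = 0.000329). Gadd45a, a stress gene whose product binds PCNA, was at 828 and 1570 in the luminal columns, 323 in Bsecs, with 41.3 and 142 in the basal pair, and fell by 3.77 ± 0.62 in basal against luminal columns (edgeR adjusted p = 2.87e-05). In Bsecs against basal columns its difference of 1.89 ± 0.66 did not pass (edgeR adjusted p = 0.115).

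The BH3-only death genes Bbc3 (Puma) and Pmaip1 (Noxa) had 95 and 115 reads in Bsecs, and 0 or 1 read in either basal column. Both passed in Bsecs against basal columns (edgeR adjusted p = 0.00562 for Bbc3 and 0.00221 for Pmaip1). Pmaip1 had 6 and 30 reads in the luminal columns and fell in basal against luminal columns (edgeR adjusted p = 0.0468). Plk3, a stress kinase, fell by 3.10 ± 0.92 in Bsecs against basal columns (edgeR adjusted p = 0.0433).

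Perp, the most abundant gene of the list and a p53 target that also serves desmosomes, was at 435 and 434 normalised counts in the luminal columns, 2214 in Bsecs, with 1979 and 879 in the basal pair. It rose by 1.70 ± 0.53 in basal against luminal columns (edgeR adjusted p = 0.0281) and by 2.36 ± 0.61 in Bsecs against luminal columns (edgeR adjusted p = 0.0172). Ddb2, a DNA repair gene, had 46 and 114 reads in the luminal columns, 0 in Bsecs, with 8 and 1 in the basal pair, and was lower than in luminal columns both in the basal columns (edgeR adjusted p = 0.0411) and in Bsecs (edgeR adjusted p = 0.0375).

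Of the genes that turn over p27, p21 and D cyclins, 14 were tested and 1 passed as lower in basal against luminal columns, where 7.67% of all genes tested were lower. DESeq2 also called 1, and 2 had an unadjusted p under 0.05. Fbxo31, an F-box protein known in human cells for degrading cyclin D1, had 62 and 109 reads in the luminal columns, 3 in Bsecs, with 10 and 1 in the basal pair, and fell by 3.54 ± 1.17 in basal against luminal columns (edgeR adjusted p = 0.0401). In Bsecs against basal and against luminal columns 0 passed edgeR's test, with 0 and 1 at an unadjusted p under 0.05 and 0 by DESeq2. The medians were 0.37, -0.36 and -0.14, and Ddb1, the most abundant, was at 784 to 1387 normalised counts.

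Of the Polycomb genes and other regulators of the Cdkn2a locus, 15 were tested, and Cdkn2a itself had no reads. In basal against luminal columns 1 rose and 2 fell, where 5.25% of all genes were higher and 7.67% lower, and in Bsecs against basal columns 1 rose, where 2.7% were higher. Tbx2, a repressor of Cdkn2a, had 0 reads in both luminal columns and in Bsecs, and 6 in the larger basal column against 41 in the smaller, and rose in basal against luminal columns (edgeR adjusted p = 0.0303). Its relative Tbx3 was at 601 and 973 normalised counts in the luminal columns, 560 in Bsecs, with 143 and 202 in the basal pair, and fell by 2.23 ± 0.55 in basal against luminal columns (edgeR adjusted p = 0.00423). Ets2, the most abundant of the list and an activator of p16 in human cells, fell by 2.83 ± 0.54 in basal against luminal columns (edgeR adjusted p = 0.000207) and rose by 2.02 ± 0.59 in Bsecs against basal columns (edgeR adjusted p = 0.0403). In Bsecs against luminal columns 0 passed in edgeR, with 1 at an unadjusted p under 0.05 and 0 by DESeq2, and the medians were 0.10, 0.19 and 0.00.

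Of the inputs to Ccnd1 transcription, 19 were tested. In basal against luminal columns 1 rose and 3 fell, where 5.25% of all genes were higher and 7.67% lower, and in Bsecs against basal columns 1 rose, where 2.7% were higher. Myc, the factor known for the E-box motif, was the most abundant, at 543 and 1244 normalised counts in the luminal columns, 1028 in Bsecs, 1986 in the larger basal column and 5176 in the smaller. It rose by 1.96 ± 0.55 in basal against luminal columns (edgeR adjusted p = 0.0137), while Jun, Fos and Stat5b fell by 1.66, 2.25 and 2.89 (edgeR adjusted p of 0.0286, 0.00789 and 0.0104). Jun, a subunit of AP-1, was at 1109 and 1534 in the luminal columns, 2052 in Bsecs, with 324 and 538 in the basal pair, and rose by 2.31 ± 0.60 in Bsecs against basal columns (edgeR adjusted p = 0.0154).

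In Bsecs against luminal columns 0 of these inputs passed edgeR's test, with 3 at an unadjusted p under 0.05 and 0 by DESeq2. The medians of the list were 0.30, -0.21 and 0.03.

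For the 4 genes with a mean of at least 50, the genes nearest in profile were taken among 6248 candidates by the root mean square difference of centred log2 values over the 5 columns. Nearest to Ccnd2 were Krt5, the basal keratin, at 0.735 and Ltbp4, a binding protein of latent TGF-beta, at 0.784. Krt5 was at 0.892 and 30.4 normalised counts in the luminal columns, 3307 in Bsecs, 1773 in the larger basal column and 3177 in the smaller, so unlike Ccnd2 it was as high in the smaller basal column as in Bsecs.

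Nearest to Cdkn1a were Rad9a, a subunit of a DNA damage clamp, at 0.246 and Sema4b, a semaphorin, at 0.392. Rad9a was at 21.4 and 65.1 normalised counts in the luminal columns, 164 in Bsecs, with 7.69 and 30.5 in the basal pair. Nearest to Ccnd1 were Ghitm, a protein of the inner mitochondrial membrane, at 0.0867 and Tcf3, an E-protein transcription factor, at 0.102. Nearest to Cdk4 were Otud6b, a deubiquitinase, at 0.0770 and Dpm1, a subunit of dolichol phosphate mannose synthase, at 0.0853. With 5 columns and so many candidates, near profiles of this kind are a description of the columns.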

How the data were processed

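RNA of FACS-sorted mammary epithelial cells was extracted with TRIzol, amplified with the Ovation RNA-seq system and made into multiplexed libraries, per the labels' protocols. STAR, DESeq and the mm9 build are named in the submitters' processing notes. No version, read counter, annotation or strand setting is given in the sources used here. There are 6 comparison tables deposited by the authors, each with a signal per group (DESeq base means, normalised read counts) and an unadjusted p-value per gene. They hold 0 columns per library and 0 columns of other origin.

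Every deposited signal was a whole multiple of 1 step per column, within 0.01 of a count for 100% of values, so whole reads were recovered. This gave 5 distinct columns. Each may be 1 library or a pool of 2. Columns of a lineage also carry different genotype labels, so their spread mixes genotype label, library and sort, and its technical part is not known. The edgeR p-values rest on each gene's own spread only in small part, with 32.26 prior degrees of freedom from all genes. Columns were grouped as 2 luminal, 2 basal and 1 Bsecs and fitted once with edgeR 4.0.16 in R 4.3.3 (TMM, filterByExpr, quasi-likelihood F-test, residual degrees of freedom 2), with Benjamini-Hochberg adjustment over all genes tested at 0.05. DESeq2 1.42.0 was an alternative. Pairs of columns used the authors' deposited p-values, adjusted here over all genes, and exact binomial (Clopper-Pearson) 95% intervals. Intervals of reads (Poisson) and limits of 3 reads cover counting error only, since amplified reads without molecular identifiers are not independent. Exon lengths, overlaps of exons and promoter letters come from GENCODE M21 and RefSeq on GRCm38, not the build of the files, and were used for no coordinates of reads. Intervals and ratios used scipy 1.17.1 in Python 3.11.15.

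The genes and lists were chosen with earlier results of these data known. Named genes are all 10, up to 4 per list with the largest difference past 0.05 in a comparison and the most abundant of each list, and the 2 nearest profiles per gene with a mean of at least 50. Ccne1, Ccne2, Cdk2, Cdc25a, Ccnh, Mnat1, Cdkn2c, Cdkn2d, Cdkn3, Trp53, Mdm2, Bysl, Tspan31 and single markers were named beyond this rule, after their values were seen. Alternatives changed the scaling, the filter, the test, the pseudocount, the length and the columns used. The fits were also run on simulated counts in which only the basal columns were changed and all columns had the same dispersion. Such counts cannot show whether the lone Bsecs column varies like the others, or what unlike genotypes within a group do. Their outcome is not given here, and no result rests on it.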

Additional observations from a re-analysis of the deposited data

How the results depend on the processing

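No paired analysis was possible because the deposited tables hold no column per library. Leaving out each luminal or basal column in turn, the number of the 10 genes past the threshold in edgeR's test ran from 1 to 2 in basal against luminal columns (2 without the smaller basal column) and from 1 to 2 in Bsecs against luminal columns (1 without the WT luminal column), and was 1 throughout in Bsecs against basal columns. The scaling, the filter on low counts and DESeq2 changed none of these 3 counts. Without one column at a time, the log2 differences in basal against luminal columns ran from -6.49 to 2.20 for Ccnd3, from -1.15 to 2.16 for Cdk6, from -2.11 to 0.057 for Cdkn1a (0.020 without the KO-labelled luminal column) and from -0.46 to 1.32 for Cdkn1b (-0.036 without the WT luminal column). In Bsecs against basal columns they ran from -2.03 to 6.19 for Ccnd3, from -1.49 to 1.82 for Cdk6, from -0.83 to 0.67 for Cdkn1b and from 2.28 to 4.44 for Cdkn1a, which stayed past the threshold, and in Bsecs against luminal columns from -1.01 to 1.19 for Ccnd3 and from -0.30 to 0.998 for Cdkn1b. Of the values in basal against luminal columns here, Cdkn1a without the smaller basal column was the one past the threshold. With totals without Rn45s, Cdk4 turned to -0.027 in Bsecs against basal columns. The cause was not tested.

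Between single columns, edgeR's exact test with an assumed dispersion of 0.16 moved the number of genes past the threshold from 0 to 1 in the smaller against the larger basal column (Ccnd3), in Bsecs against the larger basal column (Cdkn1a) and in Bsecs against the KO-labelled luminal column (Ccnd2), and from 1 to 2 in Bsecs against WT luminal cells (Ccnd2 and Cdkn1a). Adjusting over genes with a mean of at least 50 alone also gave 1 in Bsecs against the KO-labelled luminal column. Totals without Rn45s shifted every log2 difference by -0.17 to -0.36 in comparisons with Bsecs or between the basal columns, and TMM factors by -0.12 between the basal columns and by 0.11 in Bsecs against the smaller. With totals without Rn45s the order of levels changed for Cdk4, Cdk6 and Cdkn1c. The Ccnd2 share of D cyclins in Bsecs moved to 56.4% with the longest coding transcript, a setting chosen after seeing the data. Cdkn1c, Cdkn2a and Cdkn2b, with at most 5 reads in a column, are limited by depth, while Ccnd3, Cdk6 and Cdkn1b also differed between the basal columns by more than counting error. So did Cdkn1a (4.81-fold higher in the smaller), Ccnd1 (1.32-fold lower), Ccnd2 (1.33-fold lower) and, on 5 reads against 0, Cdkn1c (higher in the smaller).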
